A study of Mus musculus with 4 samples.

Results

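MHC class I molecules show fragments of a cell's own proteins to cytotoxic T cells. The genes described here are the 10 that make and load them: H2-K1 and H2-D1 (the classical heavy chains), B2m (the light chain), Tap1 and Tap2 (the peptide transporter of the endoplasmic reticulum), Tapbp (tapasin, which holds the empty molecule at the transporter), Psmb8, Psmb9 and Psmb10 (the inducible catalytic subunits of the proteasome) and Nlrc5 (the transactivator of class I genes). They were taken by symbol from the deposited table, and all 10 were found among its 19171 genes. Peptides are cut by the proteasome, carried through the transporter, trimmed, and fitted into the heavy chain with the help of tapasin, calreticulin and an oxidoreductase. Nearly all nucleated cells run this pathway at a basal level, and interferons raise most of its genes together through STAT and IRF factors and NLRC5.

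The RNA came from collagenase-released cells of the calvaria, the flat bone of the skull, of C57BL/6 mice at postnatal day 10. All 4 libraries share 1 genotype: floxed alleles of the miR-17-92 cluster and loss of the miR-106b-25 cluster, labelled mir17fl/fl:106b-/-. Cells behind 2 libraries received a Cre adenovirus, meant to excise the floxed cluster, and those behind the other 2 a YFP adenovirus, at a dose chosen to infect more than 80% of the cells, and polyadenylated RNA was sequenced 3 days later. The comparison asks what loss of the miR-17-92 cluster did on a background without its sister cluster. Virus insert and deletion change together, so the effect of Cre protein and that of the deletion cannot be told apart. Whether replicates are separate animals or cultures is not stated. The values are FPKM, fragments scaled to transcript length and to the number mapped, so levels of different genes can be set side by side. They summed to 458756 to 471021 per library over all genes. Read counts are not used here, and the depth behind a value is unknown.

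The host transcript of the targeted cluster, Mir17hg (Entrez 75957), was not lower in the libraries labelled Cre. It read 3.29 and 3.91 FPKM in those labelled YFP and 7.35 and 8.49 FPKM in those labelled Cre (log2 change 0.96, limma adjusted p = 3.62e-05). The table does not give which part of that transcript was counted, and the mature miRNAs were not measured, so these values check neither the excision nor the labels. In what follows, Cre and YFP stand for the libraries so labelled.

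Matrix genes of bone-forming cells were abundant, and some differed between the groups. Col1a1 was at 1684 to 1778 FPKM over the 4 libraries and was not called (log2 change -0.03, 95% interval -0.14 to 0.08). Spp1 rose from 3126 and 3242 FPKM with YFP to 3855 and 3919 FPKM with Cre (log2 change 0.29, limma adjusted p = 0.00148). Col1a2 fell from 1329 and 1242 FPKM to 1081 and 1024 FPKM (log2 change -0.29, adjusted p = 0.00218), and its adjusted p was 0.0618 when Cre replicate 2 was left out. Of 10 osteoblast markers, 7 were tested, of which 1 was called higher and 1 lower, beside 16.6% and 16.3% of all tested genes. The part of such differences in the changes described below was not tested. The osteoblast factor Sp7 was at 1.81 to 2.43 FPKM. Genes of mature, mineralising cells were low: Dmp1 was at 0.26 FPKM or less, Ibsp at 0.63 FPKM or less, and Bglap was listed at 0 in both YFP libraries and at 1.27 and 0.91 FPKM with Cre. In bulk RNA, more cells of a type and more RNA per cell cannot be told apart.

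The regulatory sequences that the class I genes share lie just before their starts. RefSeq promoter windows (250 bases before to 50 after the start, mouse build GRCm38.p6) were matched for 8 of the 10 genes, and Tap2 and Nlrc5 had none. Of a pair of overlapping windows for H2-K1, the first is printed. The windows of the 3 genes whose products form the class I molecule itself, and the window that Tap1 shares with Psmb9, are printed 5′ to 3′ on the gene's own strand. Capitals mark matches to any of 6 motifs, searched on both strands: an ISRE (GAAANNGAAA, a site of IRF and STAT complexes), a GAS element (TTCNNNGAA, of genes activated by interferon gamma), a kappa B site, the half-site TGACG of CREB and ATF factors, the CCAAT box of NF-Y (CCAAT, read ATTGG on the other strand), and a core of the class I ISRE (AAGTGAAAC, read GTTTCACTT on the other strand). The last was added after the windows had been read, and capitals were set for it as well.

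H2-K1 promoter, chr17:34000298-34000597 (minus strand): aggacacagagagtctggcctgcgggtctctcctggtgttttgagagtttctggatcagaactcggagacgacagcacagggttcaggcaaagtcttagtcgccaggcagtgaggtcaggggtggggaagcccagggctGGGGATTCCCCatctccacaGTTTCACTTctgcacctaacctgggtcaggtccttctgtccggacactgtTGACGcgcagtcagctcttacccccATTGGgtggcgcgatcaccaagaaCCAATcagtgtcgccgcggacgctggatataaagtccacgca
H2-D1 promoter, chr17:35262844-35263143 (plus strand): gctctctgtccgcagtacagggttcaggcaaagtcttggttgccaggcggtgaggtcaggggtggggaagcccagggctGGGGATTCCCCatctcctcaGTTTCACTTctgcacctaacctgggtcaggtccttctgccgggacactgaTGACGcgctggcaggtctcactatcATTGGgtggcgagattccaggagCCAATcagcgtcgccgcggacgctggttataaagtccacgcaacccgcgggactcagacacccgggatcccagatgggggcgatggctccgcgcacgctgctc
B2m promoter, chr2:122147437-122147736 (plus strand): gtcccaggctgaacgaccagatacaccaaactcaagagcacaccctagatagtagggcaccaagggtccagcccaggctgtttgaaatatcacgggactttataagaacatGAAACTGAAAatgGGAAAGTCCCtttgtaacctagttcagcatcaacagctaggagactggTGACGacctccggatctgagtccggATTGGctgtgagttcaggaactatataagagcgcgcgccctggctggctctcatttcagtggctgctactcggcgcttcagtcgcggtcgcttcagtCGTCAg
Tap1 promoter, chr17:34187306-34187605 (plus strand): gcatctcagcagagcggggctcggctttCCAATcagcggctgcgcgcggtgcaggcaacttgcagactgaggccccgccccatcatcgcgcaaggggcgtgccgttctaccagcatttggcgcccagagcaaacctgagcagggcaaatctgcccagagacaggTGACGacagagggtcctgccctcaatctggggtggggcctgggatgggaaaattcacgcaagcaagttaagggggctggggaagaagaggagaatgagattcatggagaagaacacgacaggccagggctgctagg

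NLRC5 acts on class I promoters in a complex known as the enhanceosome, with RFX, CREB or ATF, and NF-Y factors side by side. H2-K1, H2-D1 and B2m share the CREB or ATF and NF-Y letters of that arrangement. No RFX motif was searched. In each of the 3, TGACG is followed by ATTGG exactly 25 bases further on. TGACG starts at position -41 in H2-K1, -101 in H2-D1 and -78 in B2m, counted with the first transcribed base as 1 and the base before it as -1. That spacing was looked for after it had been seen in these windows. It occurred in 19 of 32851 RefSeq windows (0.0578%), which belong to 16 genes, among them H2-M3, a further class I gene. TGACG followed by ATTGG at any distance occurred in 1.37% of windows. None of the other 5 matched genes had the pair in that order.

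Upstream of this pair, the heavy chain genes carry a kappa B site, of which the printed matches overlap by all but 1 base, and the class I ISRE core. The core starts at -91 in H2-K1 and -151 in H2-D1 and was found in 0.399% of all windows. B2m instead has the full ISRE at -139 and a kappa B match at -126. Over all windows, 3.44% held the ISRE, 8.3% the GAS element, 8.46% a kappa B site, 20.8% TGACG and 37.4% CCAAT on either strand. Of the 8 matched members, 1 held the ISRE (B2m), 1 the GAS element (Psmb8, TTCCCAGAA at -97), 3 a kappa B site, 5 TGACG and 6 CCAAT. The Psmb10 window held none of these. In the overlapping windows of Tap1 and Psmb9, TGACG and CCAAT are the same sites read from opposite strands, counted here for both genes. A match is a description of letters, not evidence of a bound factor.

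Tap1 and Psmb9 are transcribed away from each other, from starts 226 bases apart. Their windows share 275 bases on opposite strands, so the window printed for Tap1 is also most of that of Psmb9. These genes sit with Psmb8 and Tap2 in a block of 34.3 kb of chromosome 17, in the order Psmb9, Tap1, Psmb8, Tap2 (34182030 to 34216321, GRCm38.p6). In all, 7 of the 10 genes lie on chromosome 17, Psmb10 and Nlrc5 on chromosome 8, and B2m on chromosome 2.

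The floxed cluster encodes miRNAs of 4 seed families, whose seeds (bases 2 to 8, in capitals) pair with sites in the 3′ untranslated regions of target mRNAs. miR-17-5p and miR-20a-5p share a seed, as do miR-19a-3p and miR-19b-3p. They are printed because the question for each member is whether its mRNA could be bound directly.

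miR-17-5p: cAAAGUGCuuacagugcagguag
miR-20a-5p: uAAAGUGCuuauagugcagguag
miR-18a-5p: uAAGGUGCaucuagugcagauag
miR-19a-3p: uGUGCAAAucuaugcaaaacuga
miR-19b-3p: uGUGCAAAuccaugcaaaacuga
miR-92a-3p: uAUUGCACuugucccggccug

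In the longest annotated 3′ untranslated region of each member (GENCODE M21), 55 to 1197 bases long, none of the 10 held a site of the miR-17 family (GCACTTT), the miR-19 family (TTTGCAC) or the miR-92 family (GTGCAAT). A miR-18 site (GCACCTT) was found in Nlrc5 alone, at bases 753 to 759 of 1197, and no A follows it.

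Nlrc5 site: agtatttataaGCACCTTctggagaaact

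Among 10963 tested genes with an annotated region, 14.9% held the miR-17 site, 9.18% the miR-18 site, 13.8% the miR-19 site and 7.63% the miR-92 site. The members' regions are mostly short, and sites in coding sequence were not searched.

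With Cre, both heavy chains and the light chain were higher than with YFP. H2-K1 (Entrez 14972) read 30.4 and 28.9 FPKM in the YFP libraries and 43.5 and 43.2 FPKM in the Cre libraries. The groups stood well apart, with replicates within 2 FPKM of each other. H2-K1 rose 1.46-fold by ratio of means, from 29.6 ± 1.1 to 43.3 ± 0.3 FPKM (SD, n = 2), and its log2 change was 0.53 (SE 0.05, limma adjusted p = 1.80e-05), on the log2(FPKM + 1) scale used for all log2 changes here. H2-D1 (Entrez 14964) read 58.2 and 55.4 FPKM with YFP and 83.2 and 85.8 FPKM with Cre. It rose 1.49-fold (log2 change 0.57, SE 0.05, limma adjusted p = 1.22e-05). Part of each transcript is repeated in other class I genes: 8.79% of the 50-base stretches of H2-K1 and 14.3% of those of H2-D1 occur in transcripts of another gene, so some reads could have been counted for a neighbour.

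B2m (Entrez 12010), which has no such shared stretch, was by far the most abundant member. It read 817.2 and 886.5 FPKM with YFP and 1120 and 1098 FPKM with Cre. The group means were 852 ± 49 and 1109 ± 16 FPKM (SD, n = 2). B2m rose 1.30-fold, with a log2 change of 0.38 and an SE of 0.05 (limma adjusted p = 3.54e-04). Within each library H2-K1 stood at 3.72% and 3.26% of the B2m level with YFP and at 3.89% and 3.93% with Cre. H2-D1 stood at 7.12% and 6.25% of B2m with YFP and at 7.43% and 7.81% with Cre. Both ratios were higher in the Cre libraries, with an exact two-sided permutation p = 0.333 for each, the smallest that 2 libraries against 2 can give. H2-D1 was at 191 to 199% of H2-K1 in all 4 libraries, and the groups overlapped in that ratio (exact permutation p = 1).

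**Figure D1:**
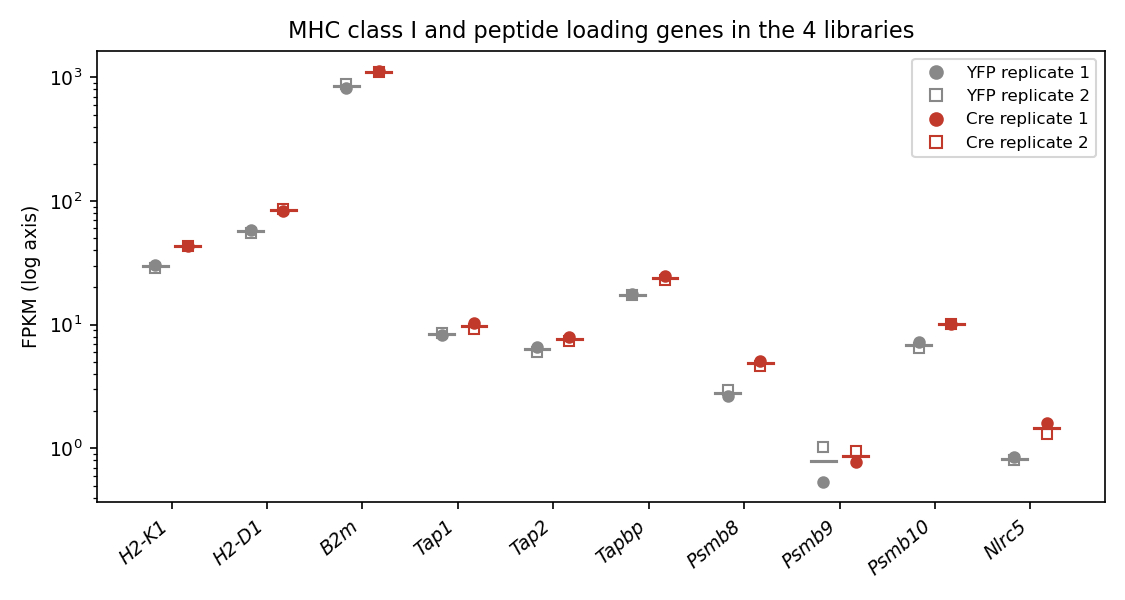
FPKM (log axis) of the 10 genes in each library. Grey marks are YFP and red marks Cre, circles replicate 1 and open squares replicate 2, and bars are group means. B2m lies between 817.2 and 1120 FPKM, H2-D1 and H2-K1 between 28.9 and 85.8 FPKM, and Psmb9 and Nlrc5 near 1 FPKM. The groups overlap in Psmb9 alone.

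The transporter genes were also called higher, with log2 changes whose 95% intervals were 0.05 to 0.34 for Tap1 and 0.10 to 0.40 for Tap2. Both overlapped those of B2m (0.26 to 0.50), Tapbp (0.31 to 0.54) and Nlrc5 (0.23 to 0.62). Both lay below those of H2-K1 (0.43 to 0.64), H2-D1 (0.46 to 0.67) and Psmb8 (0.47 to 0.80). That of Psmb10 (0.35 to 0.64) overlapped Tap2 but not Tap1. Differences between genes were not tested. Tap1 (Entrez 21354) read 8.30 and 8.57 FPKM with YFP and 10.4 and 9.28 FPKM with Cre. The lower Cre library was close to the YFP range. The log2 change was 0.20 (SE 0.06, limma adjusted p = 0.0377, ratio of means 1.16). It missed the threshold when Cre replicate 1 (adjusted p = 0.277), YFP replicate 1 (0.106) or YFP replicate 2 (0.0502) was left out, and with no filter on low values (0.0915). Tap2 (Entrez 21355) read 6.61 and 6.00 FPKM with YFP and 7.95 and 7.38 FPKM with Cre, a log2 change of 0.25 (SE 0.07, limma adjusted p = 0.0171, ratio of means 1.22). It missed the threshold when Cre replicate 1 (adjusted p = 0.144), Cre replicate 2 (0.0561) or YFP replicate 2 (0.088) was left out, and with no filter (0.0543). Tap1 stood at 126% to 143% of Tap2, with overlapping groups (exact permutation p = 1).

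Tapbp (Entrez 21356), which bridges transporter and class I molecule, was called higher in every alternative run. Its values were 17.7 and 17.4 FPKM with YFP and 24.8 and 23.1 FPKM with Cre. It rose 1.36-fold (log2 change 0.43, SE 0.05, limma adjusted p = 1.60e-04).

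The inducible proteasome subunits replace constitutive ones and change which peptides are cut. Psmb8 (Entrez 16913), which takes the place of Psmb5, read 2.65 and 2.94 FPKM with YFP and 5.13 and 4.64 FPKM with Cre. It rose 1.75-fold, with a log2 change of 0.63 (SE 0.08, limma adjusted p = 1.28e-04). Psmb10 (Entrez 19171), which takes the place of Psmb7, read 7.30 and 6.49 FPKM with YFP and 10.12 and 10.09 FPKM with Cre. It rose 1.47-fold (log2 change 0.49, SE 0.06, limma adjusted p = 2.41e-04).

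Psmb9 (Entrez 16912), which takes the place of Psmb6, did not follow. Its YFP libraries read 0.54 and 1.03 FPKM and its Cre libraries 0.78 and 0.95 FPKM. Both Cre values fell between the YFP values. It reached 1 FPKM in a single library and was not tested under the filter. With no filter its log2 change was 0.08 (limma adjusted p = 0.753). The YFP replicates of Psmb9 differed from each other by a larger ratio than the group means of any other member, so a change of the members' usual size was not detectable. Along the block on chromosome 17, the ratios of Cre to YFP means were 1.10 for Psmb9, 1.16 for Tap1, 1.75 for Psmb8 and 1.22 for Tap2, these differences between genes not being tested.

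All 3 inducible subunits stayed far below the subunits they replace. Psmb8 was at 3.01% and 3.63% of the Psmb5 level with YFP and at 6.06% and 4.97% with Cre. Psmb10 was at 4.29% and 3.80% of Psmb7 with YFP and at 5.58% and 5.08% with Cre. In both pairs the Cre libraries lay above the YFP libraries (exact two-sided permutation p = 0.333, the smallest possible). Psmb9 was at 0.564% and 1.17% of Psmb6 with YFP and at 0.805% and 0.979% with Cre, with overlapping groups (exact permutation p = 1). Summed over the 3 pairs, inducible subunits made up 2.88% and 2.98% of the catalytic subunit FPKM with YFP and 4.23% and 3.87% with Cre.

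**Figure D2:**
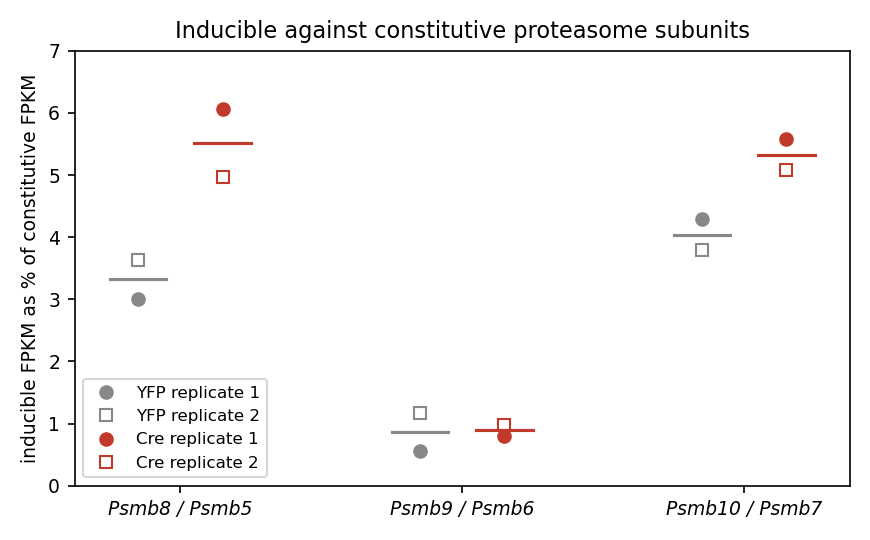
Level of each inducible subunit as a percentage of the constitutive subunit it replaces, per library. Grey is YFP, red is Cre, circles are replicate 1, open squares replicate 2 and bars group means. Psmb8 over Psmb5 goes from 3.01% and 3.63% to 6.06% and 4.97%, while Psmb9 over Psmb6 overlaps between groups.

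Of the constitutive catalytic subunits, Psmb7 had a log2 change of 0.15 (limma adjusted p = 0.042), lost when Cre replicate 2 (adjusted p = 0.375), YFP replicate 1 (0.0812) or YFP replicate 2 (0.0711) was left out and with no filter (0.1). Psmb5 and Psmb6 were not called, with log2 changes of 0.07 (95% interval -0.06 to 0.21) and 0.08 (95% interval -0.03 to 0.19). Of 14 constitutive core subunits tested, 2 were called higher and 0 lower, beside 16.6% and 16.3% of all tested genes. The other called higher was Psma6 (log2 change 0.14, limma adjusted p = 0.0319). Its call was lost in every fit that left out a library (log2 change 0.13 to 0.14) and with no filter (adjusted p = 0.0551). Psma1 narrowly missed a call (log2 change -0.13, adjusted p = 0.0506). It was called lower with a mean FPKM of at least 5 (adjusted p = 0.0417) and with median-of-ratios scaling (0.041).

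Nlrc5 (Entrez 434341), the regulator that binds class I promoters, was low and higher with Cre. It read 0.85 and 0.80 FPKM with YFP and 1.61 and 1.30 FPKM with Cre, with no overlap between the groups. Its ratio of means was 1.76 and its log2 change 0.43 (SE 0.09, limma adjusted p = 0.00466), but the adjusted p was 0.0681 when Cre replicate 1 was left out. Nlrc5 passed the filter on low values only through its Cre libraries, so its call cannot count as support for the group.

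By level, the order with YFP was B2m, H2-D1, H2-K1, Tapbp, Tap1, Psmb10, Tap2, Psmb8, Nlrc5 and Psmb9. Psmb10 (6.49 to 7.30 FPKM) and Tap2 (6.00 to 6.61 FPKM) did not differ beyond their spread, nor did Nlrc5 and Psmb9. With Cre, Psmb10 and Tap1 (9.28 to 10.4 FPKM) also overlapped.

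Both Cre libraries exceeded both YFP libraries in 9 of the 10 genes, beside 5626 of all 19171 genes. Among tested genes alone, this held for 9 of 9 members, beside 31.5% of all. Genes were tested where 2 or more libraries reached 1 FPKM, which left 9 members, and limma called 9 higher, against 16.6% of the 12046 genes tested. Without Nlrc5, the 8 members above the minimum in both YFP libraries were called higher, with a median log2 change of 0.46. With no filter, so that all 10 were tested, 7 were called higher, against 10.2% of 19171 genes. Under the filter but without Cre replicate 1, 6 of the 9 were called higher, beside 1283 of all 12046 genes. The median log2 change of the tested members was 0.43, beside -0.01 over all tested genes, and 5.31% of tested genes rose by at least as much.

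**Figure D3:**
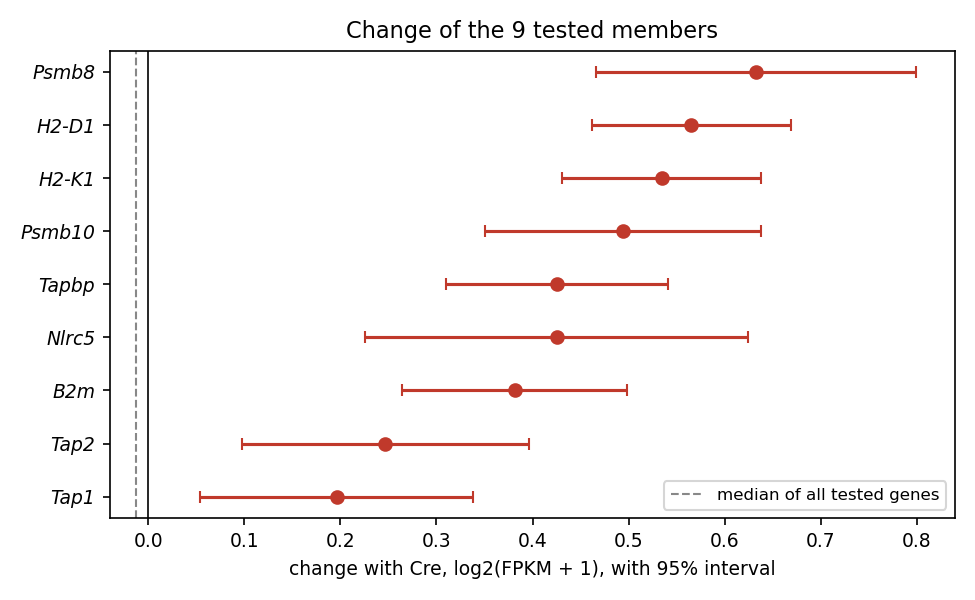
Change with Cre on the log2(FPKM + 1) scale, with 95% intervals from limma, for the 9 tested genes. Psmb8 (0.63) lies at the top and Tap1 (0.20) at the bottom, and the dashed line marks the median of all tested genes (-0.01).

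Non-classical class I genes are encoded near the classical ones and present a narrower set of ligands. Of 30 class I and class I-like genes listed beside the members, 27 were in the table and 15 stayed below 1 FPKM in every library. Of the 11 tested, 4 were called higher and 0 lower, beside 16.6% and 16.3% of all tested genes. H2-T23, a ligand of inhibitory receptors on natural killer cells, read 13.8 and 17.2 FPKM with YFP and 24.8 and 23.1 FPKM with Cre (log2 change 0.60, limma adjusted p = 0.00499). H2-T22 rose from 22.6 and 20.2 FPKM to 30.1 and 30.4 FPKM (log2 change 0.48, adjusted p = 1.25e-04), and H2-Q4 from 7.76 and 6.94 FPKM to 10.9 and 10.3 FPKM (log2 change 0.48, adjusted p = 3.51e-04). These are close relatives of each other and of the heavy chain genes, and their counts may share reads. The fourth was Procr, the endothelial protein C receptor, which has a class I-like fold and presents no peptide. It rose from 12.6 and 12.5 FPKM to 28.1 and 28.5 FPKM (log2 change 1.11, adjusted p = 1.62e-07). H2-M3, which presents formylated peptides and has the promoter spacing described above, was at 0.94 to 1.21 FPKM and was not called (log2 change 0.11, 95% interval -0.08 to 0.30).

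Of 25 other genes of peptide supply and class I assembly tested, 5 were called higher and 2 lower, with a median log2 change of 0.03. All tested genes were called higher in 16.6% and lower in 16.3%, so this list stood near the background. Psme1 and Psme2, the interferon-inducible caps of the proteasome, rose by 0.26 and 0.27 on the log2 scale (limma adjusted p = 0.00338 and 0.00152), that of Psme1 missing the threshold when Cre replicate 2 was left out (adjusted p = 0.0742). Psme3, a nuclear cap, had a log2 change of 0.03 (95% interval -0.08 to 0.13). Pomp, an assembly chaperone of the proteasome, rose by 0.22 (adjusted p = 0.00331). In the loading complex, Calr and Pdia3 had log2 changes of 0.16 each (adjusted p = 0.0354 and 0.0242). Both calls were lost without YFP replicate 1 (adjusted p = 0.156 and 0.0672), without Cre replicate 1 (0.181 and 0.168) and without Cre replicate 2 (0.183 and 0.122), and that of Calr with no filter (0.0725). The chaperone gene Canx was not called (log2 change 0.02, 95% interval -0.07 to 0.12). The trimming peptidase Erap1 (0.12, interval -0.02 to 0.27) and the tapasin relative Tapbpl (0.17, interval 0.02 to 0.32, adjusted p = 0.0839) were not called either. Derl1, of the pathway that removes misfolded proteins from the endoplasmic reticulum, fell by 0.25 (adjusted p = 0.00268).

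**Figure D4:**
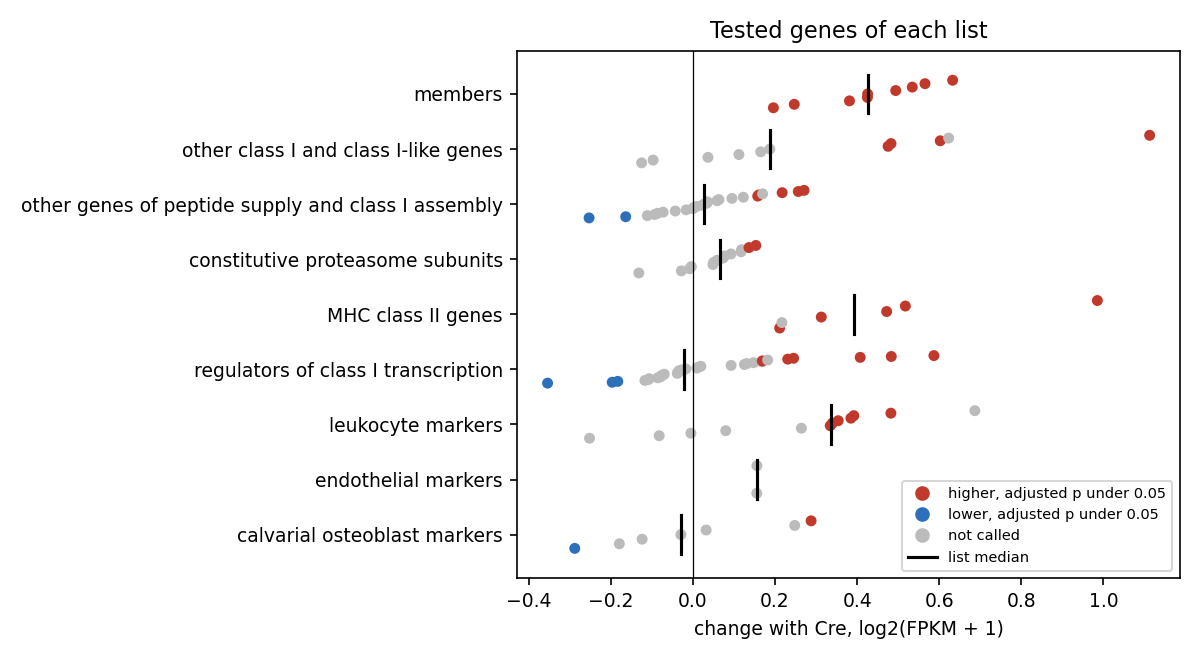
Change with Cre on the log2(FPKM + 1) scale for every tested gene of each list. Red points were called higher, blue points lower and grey points not called, and black bars are list medians. The median is 0.43 for the members, 0.07 for the constitutive proteasome subunits and 0.03 for the peptide supply and assembly genes.

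Among 32 regulators of class I transcription, 6 were called higher and 3 lower, with a median log2 change of -0.02. Over all tested genes, 16.6% were called higher and 16.3% lower, so the calls higher in this list stood near the background. The interferon signalling factors Irf9 and Stat2 rose by 0.59 and 0.48 on the log2 scale (limma adjusted p = 3.38e-05 and 3.10e-04). Irf9 read 10.91 and 11.03 FPKM with YFP and 17.7 and 16.3 FPKM with Cre. Irf1, the factor that links interferon to class I promoters, was not called: it read 11.3 and 12.3 FPKM with YFP and 13.5 and 12.4 FPKM with Cre (log2 change 0.13, 95% interval -0.01 to 0.26). Rfx5, which binds class I and class II promoters beside NLRC5, had a log2 change of -0.20 (adjusted p = 0.0338), a call lost in every fit that left out a library (adjusted p 0.0527 to 0.145) and with no filter (0.0618). Ezh2, a histone methyltransferase that represses class I genes in some cells, fell by 0.35 (adjusted p = 4.91e-04). Of 11 interferon ligand genes, 3 were in the table. Ifnb1, Ifng and Ifne were listed at 0 in both YFP libraries and in Cre replicate 2, and at 0.04, 0.02 and 0.08 FPKM in Cre replicate 1.

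Class II genes present peptides on specialised immune cells, and their levels bear on which cells were in the culture. Of 14 listed, 10 were in the table and 6 were tested. Of these, 5 were called higher and 0 lower, beside 16.6% and 16.3% of all tested genes. The presenting chains themselves were not among them: H2-Ab1 was not called (log2 change 0.22, adjusted p = 0.185), and H2-Aa and H2-Eb1 were at 0.61 FPKM or less and not tested. H2-Eb1 read 0.28 and 0.21 FPKM with YFP and 0.61 and 0.50 FPKM with Cre. With no filter it was called higher (log2 change 0.32, limma adjusted p = 0.0228), while H2-Aa was not (0.18, adjusted p = 0.34). Cd74, the class II invariant chain, read 1.27 and 0.84 FPKM with YFP and 3.32 and 2.79 FPKM with Cre (log2 change 0.99, limma adjusted p = 1.72e-04). YFP replicate 2 was below 1 FPKM, so Cd74 passed the filter on low values only with its Cre libraries. With no filter its adjusted p was 0.00459. H2-DMa, a subunit of the class II peptide editor, had a log2 change of 0.21 (adjusted p = 0.0481), lost with no filter (0.0711). H2-DMb1, the other subunit, rose by 0.52 and Ctss and Ifi30, lysosomal enzymes of antigen processing, by 0.31 and 0.47 (adjusted p = 2.69e-04, 0.00335 and 3.70e-05). Ciita, the class II counterpart of Nlrc5, was at 0.04 FPKM or less in all 4 libraries.

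Some leukocyte markers were higher with Cre as well. Of 30 listed, 25 were in the table and 12 were tested, with a median log2 change of 0.34. Of these, 6 were called higher and 0 lower, beside 16.6% and 16.3% of all tested genes. The other 6 were not called. Cd68 (log2 change 0.69, 95% interval 0.20 to 1.18, limma adjusted p = 0.0552), C1qa (0.26, interval 0.03 to 0.50) and Cd14 (0.08, interval -0.10 to 0.26) had positive changes. Cd52 (log2 change -0.25, 95% interval -0.87 to 0.37), C1qb (-0.08, interval -0.25 to 0.08) and C1qc (-0.00496, interval -0.22 to 0.21) had negative ones. The called genes included Lyz2 (log2 change 0.39, adjusted p = 1.99e-04), Tyrobp (0.38, adjusted p = 0.00126) and Laptm5 (0.35, adjusted p = 0.0028). Csf1r was also called (0.33, adjusted p = 0.00822), a call lost when Cre replicate 2 was left out (log2 change 0.29). Summed over the list, the level was 110.8 to 114.0 FPKM with YFP and 143.4 to 155.0 FPKM with Cre. Most of this sum was Lyz2, at 79.8 and 75.1 FPKM with YFP and 99.1 and 104.8 FPKM with Cre. The defining marker Ptprc, which encodes CD45, was at 0.27 to 0.37 FPKM in all libraries, and 13 of the 25 stayed below 1 FPKM everywhere. The part of leukocytes in the members' change was not tested. Of 6 endothelial markers, 2 were tested and 0 called.

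Outside the lists, the genes with the pattern closest to the members' mean profile over the 4 libraries were Znfx1, Enc1, Dcbld2, Gm3219 and Mcam. They were taken from 8369 candidates with a mean of at least 5 FPKM, by Euclidean distance of centred log2(FPKM + 1) values, which was 0.012 for Znfx1 and 0.031 to 0.035 for the others. Znfx1, an interferon-inducible sensor of double-stranded RNA, read 5.37 and 5.23 FPKM with YFP and 7.68 and 7.23 FPKM with Cre. With 4 libraries in 2 groups, this likeness describes little more than a change of like size.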

How the data were processed

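Gene-level FPKM values, which the authors deposited to 2 decimals for 19171 genes and 4 libraries (1 column each, matched to its library by the number in the column name), were used as given. Per the submitters' processing notes, Bowtie 02.2.5 and mm8 were used. How FPKM were derived from alignments, with which annotation and strand setting, is not given in the sources used here. The 12046 genes reaching 1 FPKM in 2 or more libraries were compared as log2(FPKM + 1) with limma 3.58.1 in R 4.3.3 (trend, robust, two-sided, Benjamini-Hochberg over all tested genes, threshold 0.05), a procedure tested on simulated data. With no counts, no count model was used. P-values reflect only how far these libraries scatter, and that scatter may be technical.

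The members and gene lists were chosen with earlier results of these data known. All members are named. Of each other list, up to 4 genes with the smallest p are named, together with genes set by name and the 5 genes of most similar pattern. A gene named beyond these (Mir17hg, Dmp1, Ibsp, Bglap, Ifng, Ifne, H2-DMa, H2-Ab1, H2-Aa, H2-Eb1, Cd52, Cd68, Cd14, C1qa, C1qb and C1qc) was named after its values were seen. Alternatives were a pseudocount of 0.1, no filter, a mean FPKM of at least 5, median-of-ratios scaling, leaving out each library, and the replicate number as a block. Promoter windows and miRNA sequences are from RefSeq (GRCm38.p6), and transcripts and untranslated regions from GENCODE M21. These are on another build than the deposited values. One of the genes so chosen is not reported here.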

Additional observations from a re-analysis of the deposited data

How the results depend on the processing

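H2-K1, H2-D1, B2m, Tapbp, Psmb8 and Psmb10 stayed higher, past the threshold, in every alternative that tested them (limma adjusted p at most 0.0155). The calls lost for Tap1, Tap2 and Nlrc5 are given with their values above. The count of all genes called was 3961, and 1872 to 3560 when a library was left out (1872 without Cre replicate 2, 2384 without Cre replicate 1). The members' median log2 change was 0.55 with a pseudocount of 0.1, which raises the change of low genes by construction, and 0.38 to 0.50 when a library was left out. The difference in the log2 ratio of Psmb9 to Psmb6 was 0.13. It was -0.0017 with a pseudocount of 1 and -0.40 to 0.66 when a library was left out, and the cause was not tested. The log2 change of Psme3 was -0.014 to 0.068 and that of Col1a1 -0.059 to 0.00020 when a library was left out, neither past the threshold.

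The replicate numbers are shared between the groups. Deviations of libraries with the same number were uncorrelated (r = -0.03 over 12046 genes), so the numbers do not show pairing. With the replicate number as a block, 3533 genes and 8 of the members were called, Tap1 being lost (adjusted p = 0.0595), as was Rfx5 (0.0577). FPKM without counts leave the precision of genes near 1 FPKM, Psmb9 and Nlrc5 among them, unknown.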
